A study of Brassica napus and Orychophragmus violaceus with 4 samples.

Results

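Cinnamoyl-CoA reductase (CCR) and cinnamyl alcohol dehydrogenase (CAD) catalyse the last steps in the synthesis of monolignols, the alcohols from which lignin is built. CCR reduces cinnamoyl-CoA esters to aldehydes, and CAD reduces these aldehydes to the alcohols. The CCR substrate *p*-coumaroyl-CoA is also used by chalcone synthase at the entry to flavonoids and to the anthocyanins that colour petals red and purple. In *Arabidopsis*, *CCR1* (*IRX4*), *CAD4* and *CAD5* serve lignin in the stem, whereas *CCR2* and the *ELI3* genes *CAD7* and *CAD8* are known from the response to pathogens.

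The family was taken as every *Brassica rapa* gene paired in the deposited read counts with *Arabidopsis CCR1*, *CCR2* or one of 8 *CAD* genes, which gave 15 of 37441 genes (4 *CCR* and 11 *CAD*). All of these were on named *B. rapa* chromosomes. The copies and chromosomes named below are those of *B. rapa*. How many such genes *B. napus* and *O. violaceus* hold was not examined. *B. napus* also has a C genome, whose reads could be placed only on *B. rapa* genes. The family was chosen by the read counts themselves, in which copies of *CCR2* and *CAD1* were among the strongest losses in red and purple petals. Both comparisons therefore entered the choice, and the values below are descriptions without a test. *CAD3* was not analysed here.

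RNA was sequenced from petals of half-open flowers in 4 libraries, 1 per plant material. M4 is a *B. napus* addition line that carries a pair of *Orychophragmus violaceus* chromosomes and has red petals, and its parent H3 is the yellow-flowered *B. napus* cultivar Huashuang 3. OvW is a natural white-petalled mutant of *O. violaceus*, and OvP is its purple-petalled wild type. M4 was set against H3, and the mutant OvW was set beside OvP. Folds are M4 over H3 and OvP over OvW, so that in the *Orychophragmus* pair a fold below 1 means a higher level in the white mutant. The plants grew in a greenhouse, and an addition line and a single natural mutant each differ from their partner in more than petal colour.

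Reads on genes numbered 15507389 in M4, 16447021 in H3, 2040729 in OvW and 1850787 in OvP. With 1 library each, no spread between plants could be measured, and every interval covers counting error only. Folds are ratios of read counts scaled by the trimmed mean of M values (TMM), with a 95% exact binomial (Clopper-Pearson) interval, and are written as bounds, set at 3 reads, where a library had no read. A gene was counted as higher or lower where the fold was at least 2 or at most 0.5 and the binomial test between the libraries gave a p of at most 0.01, which compares these libraries and not the conditions. Levels are given in RPKM, the read count scaled to transcript length and to library size. In bulk petals, fewer cells of a type and less RNA per cell cannot be told apart.

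The petal identity of the libraries was checked first. All 6 petal identity genes on the list had reads in all 4 libraries, with summed levels of 6415 RPKM in M4, 7216 RPKM in H3, 11979.7 RPKM in OvW and 7994 RPKM in OvP. Of their 15 copies, 2 were higher and 3 lower in M4, and 1 was higher and 3 lower in OvP. Over all genes tested, 16.2% were higher and 12.7% lower in M4, and 5.60% were higher and 5.76% lower in OvP. The copies lower in OvP included a copy of *PI* (Bra006549), with 461 reads in OvW and 42 reads in OvP (fold of OvP over OvW 0.0947). Most *PI* reads fell on Bra020093 (3208 in OvW and 1691 in OvP, fold 0.548) and Bra002285 (2256 and 1420, fold 0.654). Neither of these passed the thresholds. Anther and pollen markers summed to 15.6, 20.3, 42.6 and 51.0 RPKM in M4, H3, OvW and OvP. Carpel markers summed to 8.51, 20.1, 14.7 and 12.85 RPKM in the same order, with no reads on *INO* in M4, H3 and OvP, on *SPT* in H3 and OvP and on *SHP2* in OvW and OvP. Markers of green tissue summed to 453 RPKM in M4, 714 RPKM in H3, 2507 RPKM in OvW and 779.65 RPKM in OvP, with *RBCS1A* at 0 in M4, H3 and OvW. The white mutant was therefore read at a higher level of photosynthetic genes than the purple wild type, with 4 of 5 green-tissue genes lower in OvP. Of these calls, 2 were left when a spread between plants was allowed for (biological coefficient of variation of 0.4). Among the petal identity copies, that setting left 1 higher and 0 lower in M4, and 0 higher and 1 lower in OvP. The part of the green-tissue genes in the family results was not tested.

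The reductase family as a whole was read at 511 RPKM in M4, 747 RPKM in H3, 2038 RPKM in OvW and 536 RPKM in OvP, summed over its 15 genes. Of these, 13 had reads in M4, 11 in H3, 14 in OvW and 12 in OvP. The *CCR* genes summed to 7.55 RPKM in M4 and 9.01 RPKM in H3, and to 319.8 RPKM in OvW and 84.2 RPKM in OvP. The *CAD* genes summed to 504 RPKM in M4 and 738 RPKM in H3, and to 1718 RPKM in OvW and 451 RPKM in OvP. The *Brassica* levels and the *Orychophragmus* levels stand side by side only, since reads of both species were mapped to the *B. rapa* genome.

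**Figure D1:**
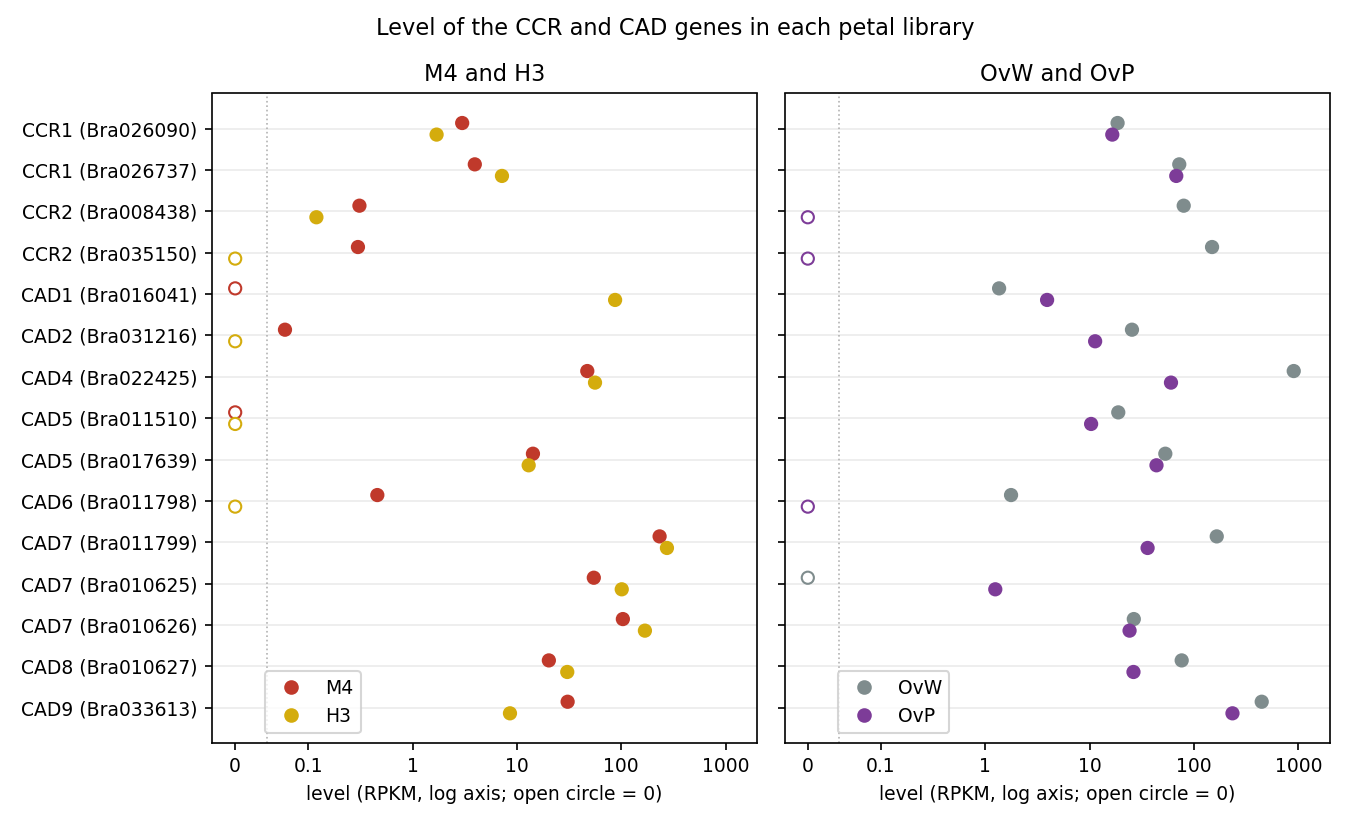
Level of each of the 15 *CCR* and *CAD* genes (RPKM, log axis, open circles at 0) in M4 and H3 (left) and in OvW and OvP (right), 1 point per library. *CAD1* lies at 0 in M4 and at 87.2 RPKM in H3, and both *CCR2* copies lie at 0 in OvP and at 79.8 and 149 RPKM in OvW.

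The make-up of the summed level is given for each library, and the part of mapping to another species in these shares was not tested. *CAD7*, which in *Arabidopsis* encodes a reductase of cinnamaldehyde and hexenal, made up 76.5% of the summed level in M4 and 72.7% in H3, and 9.42% in OvW and 11.5% in OvP. *CAD4* made up 9.24% in M4 and 7.50% in H3, and 44.3% in OvW and 11.3% in OvP. *CAD9*, a family member with a less settled role in lignin, held 5.99% in M4 and 1.15% in H3, and 21.9% in OvW and 43.7% in OvP. *CCR2* held 11.2% in OvW and none in OvP.

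**Figure D2:**
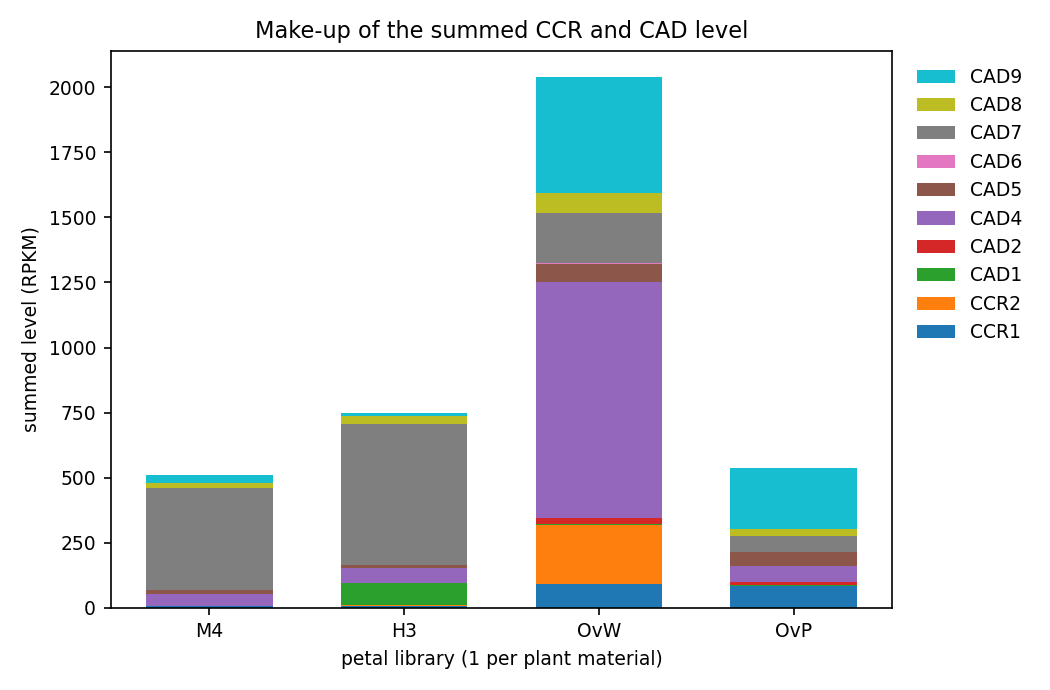
Summed level of the *CCR* and *CAD* genes (RPKM) in the 4 libraries, with each *Arabidopsis* gene a coloured part of the bar. The bars reach 511 in M4, 747 in H3, 2038 in OvW and 536 RPKM in OvP, and *CAD7* fills most of the *Brassica* bars.

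Among the *CCR* genes, *CCR1* (AT1G15950), the lignin reductase of the *Arabidopsis* stem, was read from 2 copies in all 4 libraries. Bra026090 on A06 had 49 reads in M4 and 29 reads in H3, a fold of 1.37 (interval 0.850 to 2.25). Bra026737 on A09 had 65 reads in M4 and 125 reads in H3, a fold of 0.423 (0.308 to 0.575), and was counted as lower, a call lost with total reads (0.552) and with folds of RPKM (0.549). Bra026090 took 43.0% of the *CCR1* reads in M4 (interval 33.7 to 52.6%), against 18.8% in H3 (13.0 to 25.9%).

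In *Orychophragmus* the *CCR1* copies did not pass the thresholds. Bra026090 had 39 reads in OvW and 32 reads in OvP, and Bra026737 had 155 reads in OvW and 132 reads in OvP, with folds of OvP over OvW of 0.853 (0.517 to 1.40) and 0.885 (0.696 to 1.12). Bra026090 held 20.1% of the reads in OvW (14.7 to 26.4%) and 19.5% in OvP (13.7 to 26.4%). The intervals of both copies include 1.

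*CCR2* (AT1G80820), the pathogen-induced paralogue in *Arabidopsis*, was read mainly in the white mutant. Bra008438 on A02 had 165 reads in OvW and 0 reads in OvP, and Bra035150 on A07 had 309 reads in OvW and 0 reads in OvP. Their levels in OvP were thus at least 52.9-fold and at least 99.1-fold lower than in OvW at the floor of 3 reads, and their intervals start at 42.6-fold and 80.1-fold. The upper interval end of Bra035150 was undercut by 0 genes of 33743 tested and that of Bra008438 by 2. These ranks restate the losses by which the family was chosen. With 0 reads in OvP, the interval end follows only from the reads in OvW and the scaling. At the depth of OvP, no reads still allow up to 1.62 CPM (read counts scaled to library size).

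In *Brassica* petals *CCR2* was near the detection limit. Bra008438 had 5 reads in M4 and 2 reads in H3, and Bra035150 had 4 reads in M4 and 0 reads in H3. Summed over the copies, 9 reads in M4 and 2 reads in H3 gave a fold of 3.66 with an interval of 0.757 to 34.8, so that no difference was detectable at this depth.

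Among the *CAD* genes, *CAD1* (AT1G72680; Bra016041 on A07) had 0 reads in M4 and 1573 reads in H3, or 0 and 87.2 RPKM, which put it at least 645-fold lower in M4 at the floor of 3 reads, with an interval that starts at 524-fold. Of the 34286 genes tested, 1 had a lower upper interval end. That rank restates a loss by which the family was chosen, and with 0 reads in M4 it follows from the reads in H3. In *Orychophragmus* few reads fell on this gene, 3 reads in OvW and 7 reads in OvP, a fold of OvP over OvW of 2.42 (0.554 to 14.5). The absence of reads in M4 allows at most 0.193 CPM at its depth.

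*CAD4* (AT3G19450) is a main lignin dehydrogenase in *Arabidopsis*, and its single *B. rapa* gene here is Bra022425 on A05. It had 836 reads in M4 and 1041 reads in H3, or 47.2 and 56.0 RPKM. The fold of 0.653 (0.595 to 0.716) did not reach the threshold. In *Orychophragmus* it had 2059 reads (904 RPKM) in OvW and 125 reads (60.3 RPKM) in OvP, a fold of OvP over OvW of 0.0631 (0.0522 to 0.0756), which is 15.9-fold lower in OvP. In OvW 99.6% of the genes with reads stood at a lower level than *CAD4*.

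*CAD5* (AT4G34230), the partner of *CAD4* in *Arabidopsis* stem lignin, had 2 *B. rapa* copies. Bra017639 on A03 had 246 reads in M4 and 235 reads in H3, a fold of 0.851 (0.709 to 1.02), or 1.11 when scaled by total reads, and 118 reads in OvW and 88 reads in OvP. Bra011510 on A01 had no reads in either *Brassica* library, which allows up to 1.22% of the *CAD5* reads in M4 and 1.28% in H3. It had 42 reads in OvW and 21 reads in OvP, or 26.2% of the *CAD5* reads in OvW (19.6 to 33.8%) and 19.3% in OvP (12.3 to 27.9%). Neither copy passed the thresholds in *Orychophragmus*, with folds of OvP over OvW of 0.520 (0.292 to 0.897) for Bra011510 and 0.775 (0.581 to 1.03) for Bra017639.

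**Figure D3:**
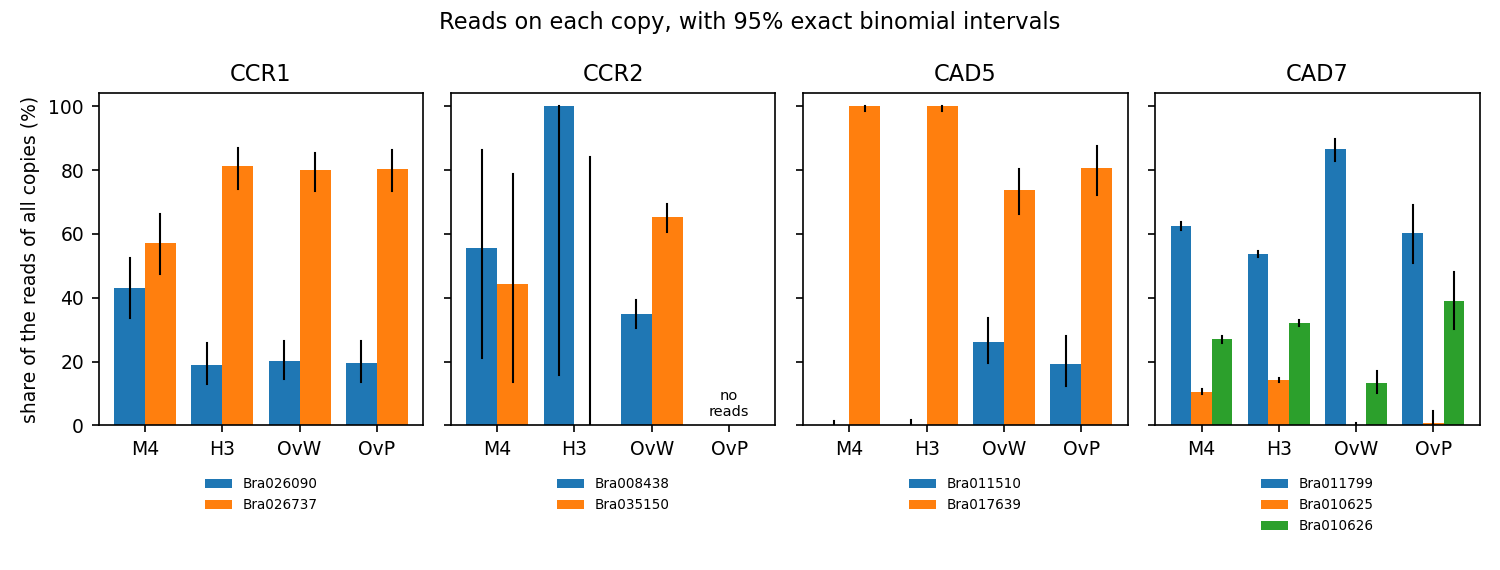
Share (%) of the reads of *CCR1*, *CCR2*, *CAD5* and *CAD7* that fell on each copy in each library, with 95% exact binomial intervals as vertical lines. Bra026090 takes 43.0% of *CCR1* in M4 and 18.8% in H3, and Bra011510 takes no *CAD5* reads in M4 and H3.

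The *ELI3* genes were the most read members in *Brassica*. Bra011799 (*CAD7*, AT4G37980, on A01) had 4030 reads in M4 and 4978 reads in H3, or 233 and 274 RPKM, a level that in H3 stood above 98.3% of the genes with reads. Its fold of 0.658 (0.631 to 0.686) did not reach the threshold. The A08 copies of *CAD7* were counted as lower. Bra010625 had 680 reads in M4 and 1324 reads in H3 (fold 0.417, 0.380 to 0.458), and Bra010626 had 1737 reads in M4 and 2968 reads in H3 (fold 0.476, 0.448 to 0.505). Both calls were lost with total reads (0.545 and 0.621) and with folds of RPKM (0.540 and 0.615). *CAD8* (AT4G37990, Bra010627), with the next identifier on A08, had 330 reads in M4 and 521 reads in H3, a fold of 0.515 (0.447 to 0.592), just outside the threshold of 0.5.

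In *Orychophragmus* Bra011799 had 368 reads in OvW and 73 reads in OvP, a fold of OvP over OvW of 0.206 (0.158 to 0.266), and was counted as lower in OvP. *CAD8* had 160 reads in OvW and 50 reads in OvP, a fold of 0.325 (0.231 to 0.449), also lower in OvP. Bra010626 had 57 reads in OvW and 47 reads in OvP, a fold of 0.857 (0.570 to 1.28), and Bra010625 had 0 reads in OvW and 1 read in OvP. The *CAD7* copies thus shifted in share, with Bra011799 taking 86.6% of the reads in OvW (83.0 to 89.7%) and 60.3% in OvP (51.0 to 69.1%), intervals that do not overlap. In *Brassica* the same copy took 62.5% in M4 (61.3 to 63.7%) and 53.7% in H3 (52.7 to 54.7%). These copies are close relatives, and the sources used here do not say how reads shared between them were assigned.

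*CAD9* (AT4G39330, Bra033613 on A06) had 534 reads in M4 and 157 reads in H3, or 30.6 and 8.58 RPKM, a fold of 2.76 (2.31 to 3.32). It was the only member counted as higher in M4. It had 1002 reads in OvW and 478 reads in OvP, or 446 and 234 RPKM, a fold of OvP over OvW of 0.496 (0.444 to 0.553), counted as lower in OvP. With total reads the fold of OvP over OvW was 0.526 and no longer passed, so this member lies at the threshold in *Orychophragmus*.

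The remaining members had few reads in *Brassica*. *CAD2* (AT2G21730, Bra031216 on A09) had 1 read in M4 and none in H3, and 57 reads in OvW and 23 reads in OvP, a fold of OvP over OvW of 0.419 (0.247 to 0.691), lower in OvP. *CAD6* (AT4G37970, Bra011798 on A01) had 8 reads in M4 and 0 reads in H3, a fold of 2.17 at the floor of 3 reads with an interval that starts at 1.39, and it did not pass the thresholds. It had 4 reads in OvW and 0 reads in OvP.

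**Figure D4:**
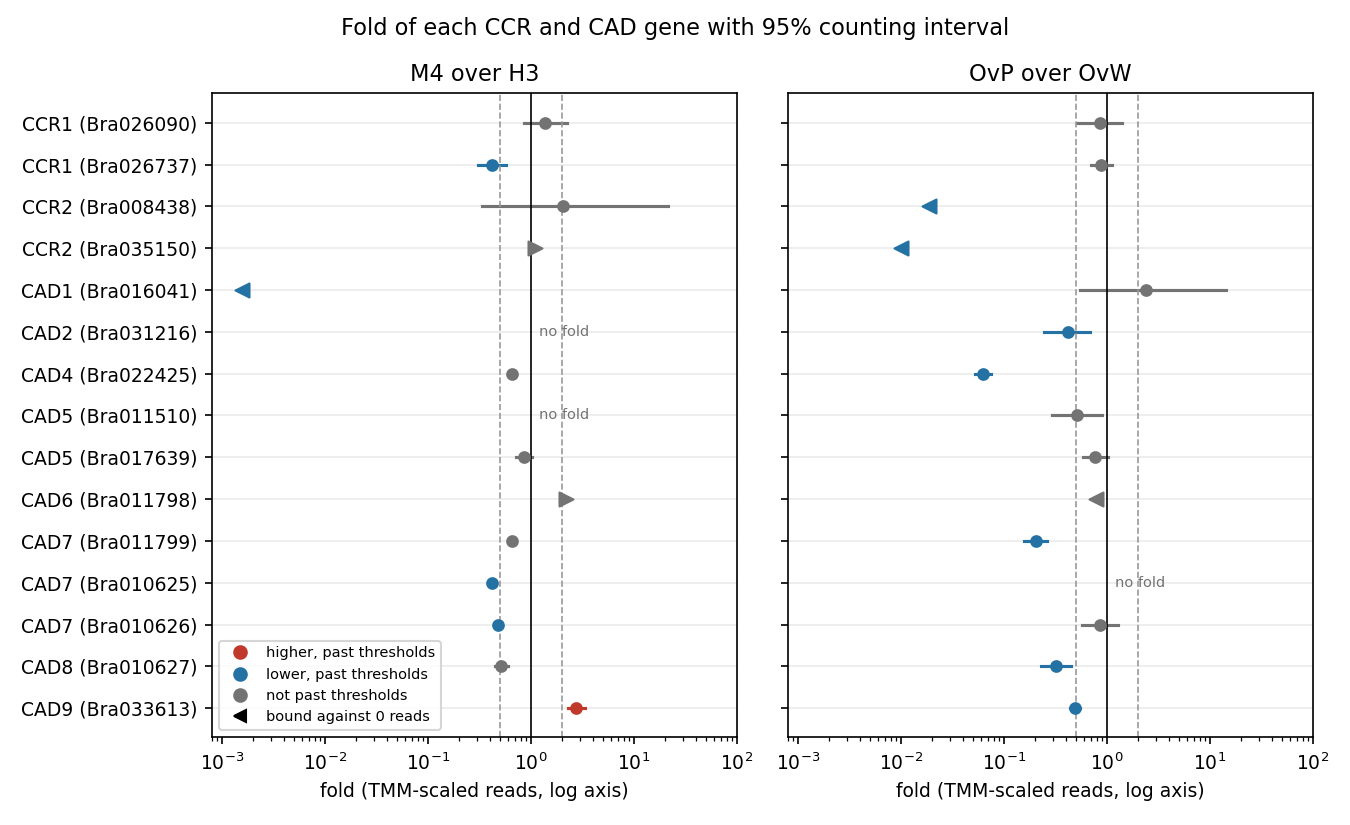
Fold of each gene (log axis) with its 95% counting interval, M4 over H3 (left) and OvP over OvW (right), with arrowheads for bounds against 0 reads and dashed lines at 0.5 and 2. In the left panel *CAD1* is the farthest point and *CAD9* the one higher gene, and in the right panel 7 genes lie low, led by both *CCR2* copies and *CAD4*.

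Counted together, 14 of the 15 genes could be tested between M4 and H3, of which 1 was higher, 4 were lower and 9 passed in neither direction. The 4 lower genes were *CAD1*, Bra026737 of *CCR1* and the A08 copies of *CAD7*. Over all 34286 genes tested, 16.2% were higher and 12.7% were lower in M4. The 10 members with 10 or more reads had a median log2 fold of -0.79, beside 0.05 over all genes. Scaled by total reads, 2 members were higher and 1 (*CAD1*) was lower, with 22.9% higher and 7.98% lower over all genes, and the median of all genes moved to 0.44. With folds of RPKM, 1 member was higher and 1 was lower, beside 20.4% higher and 8.92% lower over all genes.

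Between OvP and OvW all 15 genes could be tested, of which 0 were higher, 7 were lower and 8 passed in neither direction in OvP. The 7 lower genes were both *CCR2* copies, *CAD2*, *CAD4*, Bra011799 of *CAD7*, *CAD8* and *CAD9*. Over all 33743 genes tested, 5.60% were higher and 5.76% were lower in OvP. The 13 members with 10 or more reads had a median log2 fold of OvP over OvW of -1.01, beside 0.0038 over all genes. Total reads and RPKM folds each left 0 members higher and 6 lower in OvP, beside 6.43% higher and 5.16% lower over all genes with total reads and 5.94% and 5.40% with RPKM folds. As the family was chosen for its losses, nothing is read from these counts.

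A stricter count allowed for a spread between plants, set at a biological coefficient of variation of 0.4. The calls left were then *CAD1* in M4, and both *CCR2* copies and *CAD4* in OvP. Over all genes, 7.20% passed in either direction in the *Brassica* pair and 1.88% in the *Orychophragmus* pair.

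The other genes of the pathway were described from lists of *Arabidopsis* genes. Their counts stand beside the shares of all genes given above, 16.2% higher and 12.7% lower in M4, and 5.60% higher and 5.76% lower in OvP. The upstream monolignol enzymes comprised 39 *B. rapa* genes. The list holds the enzymes from phenylalanine to the cinnamoyl-CoA esters together with *F5H1* and *COMT1*, which act mainly on the aldehydes and alcohols. Of 36 tested between M4 and H3, 4 were higher and 7 lower in M4 (1 and 2 with a biological coefficient of variation of 0.4). The median log2 fold was -0.15 and turned to 0.24 with total reads. The 7 lower genes, named after their values were seen, were a copy each of *PAL1*, *PAL2*, *PAL3* and *PAL4*, *F5H1* (Bra011671 and Bra017752) and *COMT1* (Bra003007). *PAL3* (Bra028793) had the lowest fold, 0.0871. *PAL1* (Bra005221), which encodes phenylalanine ammonia-lyase at the entry of the pathway, had 10121 reads in M4 and 29538 reads in H3, a fold of 0.278. *HCT* (Bra033526), the hydroxycinnamoyl transferase, had 256 reads in M4 and 24 reads in H3, a fold of 8.67.

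In *Orychophragmus*, all 39 upstream genes were tested, of which 1 was higher and 15 were lower in OvP (0 and 4 with a biological coefficient of variation of 0.4), with a median log2 fold of -1.11. *PAL1* (Bra005221) had 2899 reads in OvW and 550 reads in OvP, a fold of OvP over OvW of 0.197. *CCoAOMT1* (Bra034600), a methyltransferase of the lignin branch, had 2138 reads in OvW and 98 reads in OvP, a fold of 0.0476. A copy of *C4H* (Bra021637), cinnamate 4-hydroxylase, was the one higher gene, with 13 reads in OvW and 44 reads in OvP, a fold of 3.52. The better-read copies of *C4H* were lower in OvP. These were Bra022803 (193 reads in OvW and 58 in OvP), Bra021636 (169 and 46) and Bra018311 (157 and 75). The copy Bra022802 (11 and 14 reads) did not pass the thresholds.

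Of 21 genes for export and polymerisation of the monolignols tested in *Orychophragmus*, 7 were higher and 0 lower in OvP, with a median log2 fold of 1.81, and 0 of these calls were left with a biological coefficient of variation of 0.4. These 7, named after their values were seen, were copies of the laccases *LAC4*, *LAC11* and *LAC17* and of the peroxidase *PRX52*. An example is *LAC17* (Bra006683) with 13 reads in OvW and 62 reads in OvP. Of 32 secondary-wall and xylem genes tested, 5 were higher and 1 lower in OvP (1 and 1 with that coefficient), the higher ones, also named after the values were seen, being *CESA7* and *CESA8*, cellulose synthases of the secondary wall, the xylem protease *XCP1* and 2 copies of the related *XCP2*. The lower gene was another *XCP2* copy (Bra016387), with 21 reads in OvW and 1 read in OvP, a fold of OvP over OvW of 0.0495. *XCP1* (Bra011608) had 42 reads in OvW and 266 reads in OvP, a fold of OvP over OvW of 6.58.

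Between M4 and H3, 0 of 19 export and polymerisation genes were higher and 3 were lower in M4 (0 and 2 with a biological coefficient of variation of 0.4). *PRX64* (Bra001986), a peroxidase of the root endodermis in *Arabidopsis*, had 463 reads in M4 and 1552 reads in H3, a fold of 0.242. Its call was lost with that coefficient. The call of *PRX52* (Bra028761), with 0 reads in M4 and 19 reads in H3, was kept. Of 32 secondary-wall genes, 5 were higher and 2 lower in M4 (0 and 2 with that coefficient, 8 and 2 with total reads). *MYB85* (Bra019368), a regulator of lignin genes, had 17 reads in M4 and 1 read in H3, a fold of 13.8 with an interval of 2.16 to 577. The regulator *MYB58* (Bra026048) had 1 read in M4 and 33 reads in H3.

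Dihydroflavonol 4-reductase, encoded by *DFR* and related to CCR in sequence, acts in anthocyanin synthesis. *DFR* (Bra027457) had 428 reads in M4 and 5 reads in H3, a fold of 69.6, and 34 reads in OvW and 90 reads in OvP, a fold of OvP over OvW of 2.75. Of 12 relatives of CCR tested in each pair, *DFR* included, 3 were higher and 1 lower in M4, and 1 was higher and 0 lower in OvP. A biological coefficient of variation of 0.4 left 2 higher and 0 lower in M4. It left 0 and 0 in OvP, so the call of *DFR* there was lost. Of 12 genes tested for other fates of the aldehydes and alcohols, 4 were higher and 2 lower in M4, and 0 and 0 in OvP. With a biological coefficient of variation of 0.4, 3 and 0 were left in M4. *DIR6* (Bra010542) had the highest fold in M4, 12.7, with 360 reads in M4 and 23 reads in H3. *REF1* (Bra001952), the aldehyde dehydrogenase that makes ferulate and sinapate, had 1623 reads in M4 and 4137 reads in H3, a fold of 0.319. *REF1* had 456 reads in OvW and 492 reads in OvP, without passing the thresholds.

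**Figure D5:**
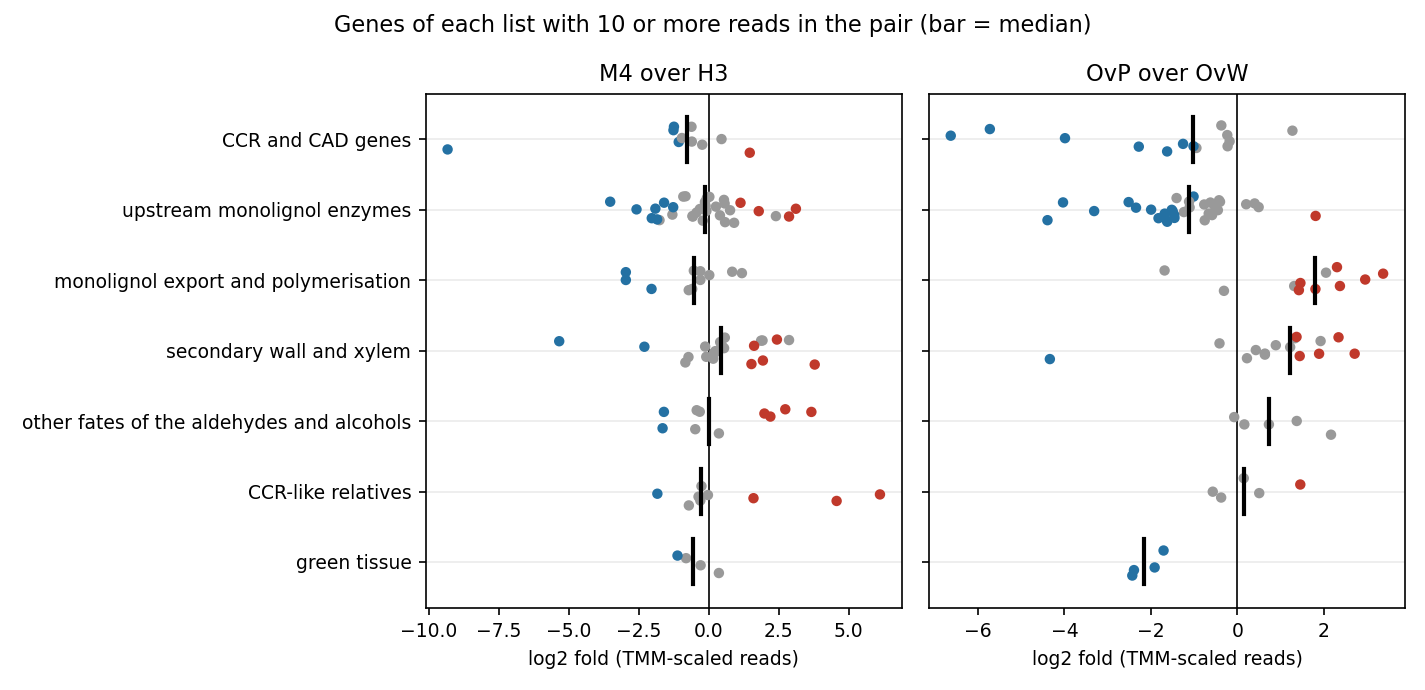
Log2 folds of M4 over H3 (left) and of OvP over OvW (right) for the genes of each list with 10 or more reads in the pair, with the median as a bar, red for higher and blue for lower past the thresholds. In the right panel the upstream enzymes have a median of -1.11 and the export and polymerisation genes one of 1.81.

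The genes most like a member over the 4 libraries were found for the *CAD4* gene and for Bra010626 of *CAD7*, as the distance between log2(RPKM + 0.5) values. Nearest to *CAD4* were *GRP23* (Bra021807) and *LHCA1* (Bra003198, distance 1.41), a light-harvesting protein of photosystem I. *PAL1* (Bra017210, 1.77) and *CCoAOMT1* (Bra034600, 1.80) were also among the 5 nearest. Nearest to Bra010626 were Bra027582 (0.384) and *EIN3* (Bra035746, 0.422), a transcription factor of ethylene signalling. A pattern over 4 libraries leaves little room to tell genes apart.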

How the data were processed

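Petal RNA was sequenced from poly(A) directional libraries, 1 per plant material. The authors mapped the reads with TopHat to the *B. rapa* genome, allowing few mismatches. The sources used here do not name the genome version, the counting tool, the strand setting or the tool versions. The deposited read counts per gene are not normalised. The RPKM values were deposited by the authors, who name Cufflinks and Cuffdiff, and the gene length behind them is not stated. In the read counts the column for M4 bore a code. It was tied to M4 because RPKM per read in M4, divided by RPKM per read in H3, was nearly the same over genes (median 1.05, 95% of 14978 genes from 1.04 to 1.06).

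Here edgeR 4.0.16 in R 4.3.3 was used for TMM scaling and its binomial test within each pair, over all genes with at least 1 read. The code was run on counts simulated without a spread between plants. Such a run cannot show how the test fares where plants differ. The fold direction was fixed as M4 over H3 and OvP over OvW. Alternatives were total reads, DESeq2 1.42.0 size factors, a minimum of 10 reads over the pair, a biological coefficient of variation set at 0.4 and folds of RPKM. Every member was named or counted, and from each list the gene with the most reads and those with the highest and lowest fold were eligible for naming. Some further list genes were named after their values were seen. Members and lists were chosen with earlier results of these data known. Shares have 95% exact binomial intervals, and intervals and floors of 3 reads cover counting error only. Sequencing reads without molecular identifiers are not independent molecules. The 2 sheets held 37441 genes with reads and 37568 with RPKM.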

Additional observations from a re-analysis of the deposited data

Results flagged for a closer look

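*CAD9* (Bra033613) passed the thresholds in opposite directions in the 2 pairs of petals with and without red or purple colour. Its fold was 2.76 in red M4 petals over yellow H3 petals and 0.496 in purple OvP petals over white OvW petals, and the difference between the pairs was not tested.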

How the results depend on the processing

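No paired analysis was possible because each plant material had 1 library, and for the same reason no library could be left out in turn. DESeq2 size factors and a minimum of 10 reads over the pair changed no member's call among the folds they gave (27 and 23). Scaled by total reads, 2 members were higher and 1 was lower in M4, *CAD6* passed with a fold of 2.83, and *CAD9* no longer passed in *Orychophragmus* with a fold of OvP over OvW of 0.526. With folds of RPKM, 1 member was lower in M4 and *CAD9* again did not pass at 0.525. With total reads and with RPKM folds, Bra026737 of *CCR1* and the A08 copies of *CAD7* were no longer counted as lower in M4. A biological coefficient of variation set at 0.4 left 0 members higher and 1 lower in M4 and 3 lower in OvP. Under it the unchanged folds in M4 of *CAD9* (2.76), Bra026737 of *CCR1* (0.423) and the *CAD7* copies Bra010625 (0.417) and Bra010626 (0.476) and, in OvP, of *CAD2* (0.419), *CAD7* summed over copies (0.296), *CAD8* (0.325) and *CAD9* (0.496) no longer passed. Of the copy shares, 29 moved by less than their counting interval when taken from RPKM and 5, all of *CAD7*, moved by more. The number of reads on genes limits the low counts in *Orychophragmus*, where no reads allow up to 1.47 CPM in OvW and 1.62 CPM in OvP. The paper reports that a far smaller share of the *Orychophragmus* reads than of the *Brassica* reads mapped to the *B. rapa* genome. The part of mapping in low or absent counts was not tested.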

Other observations

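The genes with identifiers next to *CAD1*, to both *CCR2* copies and to *CAD4* were looked at as values. Those next to the other members, some of which also had no reads in a library, were not looked at. Beside *CAD1* on A07, Bra016040 had 105 reads in M4 and 52 reads in H3, and Bra016039 had 1889 reads in M4 and 1644 reads in H3, neither past the thresholds. On the other side, Bra016043 had 2 reads in M4 and 28 reads in H3 (fold 0.0580), and Bra016044 had 24 reads in M4 and 86 reads in H3 (fold 0.227), both lower in M4. Beside the *CCR2* copies, Bra008439 had 43 reads in OvW and 15 reads in OvP (fold of OvP over OvW 0.362), and Bra035148 had 22 reads in OvW and 5 reads in OvP (fold 0.236), both lower in OvP. Of their other neighbours, Bra008437 had 1 read in OvW and 5 reads in OvP (fold 5.20), Bra008441 had 3 reads in OvW and 6 reads in OvP (2.08), Bra035152 had 6 reads in OvW and 8 reads in OvP (1.39), Bra035149 had 10 reads in OvW and 1 read in OvP (0.104) and Bra035147 had 6 reads in OvW and 1 read in OvP (0.173), none past the thresholds. The remaining neighbours of *CAD1* and of the *CCR2* copies had at most 3 reads in a library or none. Beside *CAD4*, Bra022427 had 31 reads in OvW and 50 reads in OvP (fold 1.68), not past the thresholds. Bra022424 had 5 reads in OvW and 3 reads in OvP (0.623), and Bra022426 had 5 reads in OvW and 5 reads in OvP (1.04), neither past the thresholds. Bra022423 had 1 read in OvW and 2 reads in OvP.

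Hexenal, a substrate of the *CAD7* enzyme of *Arabidopsis*, is a green leaf volatile. Of 9 genes of green leaf volatile synthesis tested between M4 and H3, 4 were higher and 3 lower in M4, beside 16.2% and 12.7% of all genes. Of 7 tested between OvP and OvW, 0 were higher and 1 was lower in OvP, beside 5.60% and 5.76% of all genes. A biological coefficient of variation of 0.4 left 3 higher and 1 lower in M4, and 0 and 0 in OvP. *LOX2* (Bra003526), the lipoxygenase at the start of that path, had 10260 reads in M4 and 22532 reads in H3 (fold 0.370). The 4 genes higher in M4, named after their values were seen, were all other copies of *LOX2*. Among them, Bra004057 had 3636 reads in M4 and 156 reads in H3 (fold 18.9). Bra004059 had 120 reads in M4 and 1 read in H3 (fold 97.5, interval 17.2 to 3884). *CHAT* (Bra031989), which acetylates hexenol, had 124 reads in M4 and 496 reads in H3 (fold 0.203).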
